A study of Mus musculus with 7 samples.

Results

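The pyruvate dehydrogenase complex, with the kinases and the phosphatase that switch it off and on, was examined in quadriceps femoris muscle of wild-type mice and of mice transgenic for a mutant Twinkle, which unwinds mitochondrial DNA for its replication. Its 10 genes were taken by name: the subunit genes Pdha1, Pdhb, Dlat, Dld and Pdhx, the kinase genes Pdk1, Pdk2, Pdk3 and Pdk4, and the phosphatase gene Pdp1. They are 10 of the 18193 genes measured and are read by 19 of the 45101 probe sets, every probe set that the platform annotation gives to 1 of these symbols. The subunits have 10 of these probe sets, the kinases 7 and the phosphatase 2. Each mouse gave 1 single-colour Affymetrix array of total muscle RNA. The 3 mutant mice, which the labels call overexpressors of mutant Twinkle, had reached 24, 24 and 21 months of age. The 4 wild-type mice had reached 26, 24, 21 and 23 months. The promoter that drives the transgene, the mutation and the feeding state of the mice are not given in the sources used here. Arrays of a group are labelled as biological replicates. The series title names a starvation response, which is the question that Pdk4, a gene known to be induced by fasting, bears on.

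The complex sits in the mitochondrial matrix and turns pyruvate into acetyl-CoA, the step that commits carbon from glucose to oxidation. Kinases of the Pdk family phosphorylate its E1 alpha subunit and stop it, and phosphatases such as Pdp1 remove the phosphate and start it again. In muscle, fasting is known to raise Pdk4 through PPAR and FoxO transcription factors, which spares glucose while fat is burned. Phosphorylation and its removal act on the protein, and the arrays measured only mRNA.

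The deposited values are log2 values set to a median of 0 for each probe set over the 7 arrays, so they give differences between arrays and no levels. A coarse level was read from the spacing of the stored numbers, as described under the processing. By it 14 of the 19 probe sets lay between 8 and 16 on the log2 scale at the median array, 4 between 4 and 8, and 1 between 2 and 4. All 10 muscle fibre markers, such as Acta1 and Ckm, lay between 8 and 16. None of the 8 measured cerebellum markers did, although the free-text descriptions name cerebellum. Twnk, the gene of the transgene, was at -0.15, 0.44 and 0.00 in mutant muscle against 0.34, -0.13, -0.14 and 0.15 in wild type, a difference of 0.04 ± 0.18 (SE), and whether its probe set reads the transgene was not examined. Fewer cells of a type and less RNA per cell cannot be told apart in whole muscle.

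The arrays fell into 2 sets that cut across genotype. The first principal component over all other genes held 51.8% of the variance. It put mutant replicate 2 and wild-type replicates 1 and 4 on one side, called set A here, and mutant replicates 1 and 3 and wild-type replicates 2 and 3 on the other, called set B. These sets come from the data and not from the labels. Fast fibre marker means were 0.14 to 0.20 in the 3 arrays of set A and -0.45 to -0.01 in the 4 of set B. Leukocyte marker means were -0.48 to -0.13 in set A and -0.05 to 0.63 in set B. Endothelial, nerve and cerebellum marker means were -0.40 to -0.07, -0.28 to -0.04 and -0.14 to -0.02 in set A. In set B they were 0.04 to 0.21, 0.01 to 0.31 and 0.02 to 0.09. Muscle fibre, slow fibre, adipocyte, fibroblast and erythroid means overlapped between the sets. The part of these marker means in the results was not tested. Single arrays also stood out. Control probe sets for 18S ribosomal RNA were at 3.19 in mutant replicate 1 and at most 0.56 elsewhere. The 5 prime minus 3 prime value of Gapdh, a sign of RNA quality, was -0.55 in wild-type replicate 3 and at least -0.04 elsewhere. The same value of beta-actin moved with genotype, at -0.14 to -0.01 in the 3 mutant arrays and 0.02 to 0.12 in the 4 wild-type arrays, and its part in the genotype differences was not tested. Wild-type replicate 3 also had the lowest muscle fibre marker mean, at -0.47 against -0.04 to 0.12 elsewhere, and the highest adipocyte and fibroblast means, at 0.94 and 1.04. Slow fibre marker means were -3.29 and -1.99 in wild-type replicates 1 and 2, and -0.09 to 0.66 in the other 5 arrays.

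No gene of the complex or of its regulators passed the test between mutant and wild-type muscle. With limma and Benjamini-Hochberg adjustment over the 18193 genes, 0 of the 10 had an adjusted p under 0.05, where 0% of all genes did and the smallest adjusted p of any gene was 1.00. Without adjustment 0 of 10 had a p under 0.05, against 1.46% of all genes. The mutant and wild-type ranges overlapped in all 10, and 1.98% of all genes had ranges apart. The differences ran from -0.11 for Pdk4 to 0.15 for Pdk2 on the log2 scale. They were negative for 7 of the 10, and for 53.6% of all genes. The median size of the difference, without its sign, was 0.08 for the 10 genes and 0.08 for all genes. The 95% intervals set how large a change these arrays would have left room for: over the 10 genes they reached from -0.63 for Pdk4 to 0.85 for Pdk2.

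**Figure D1:**
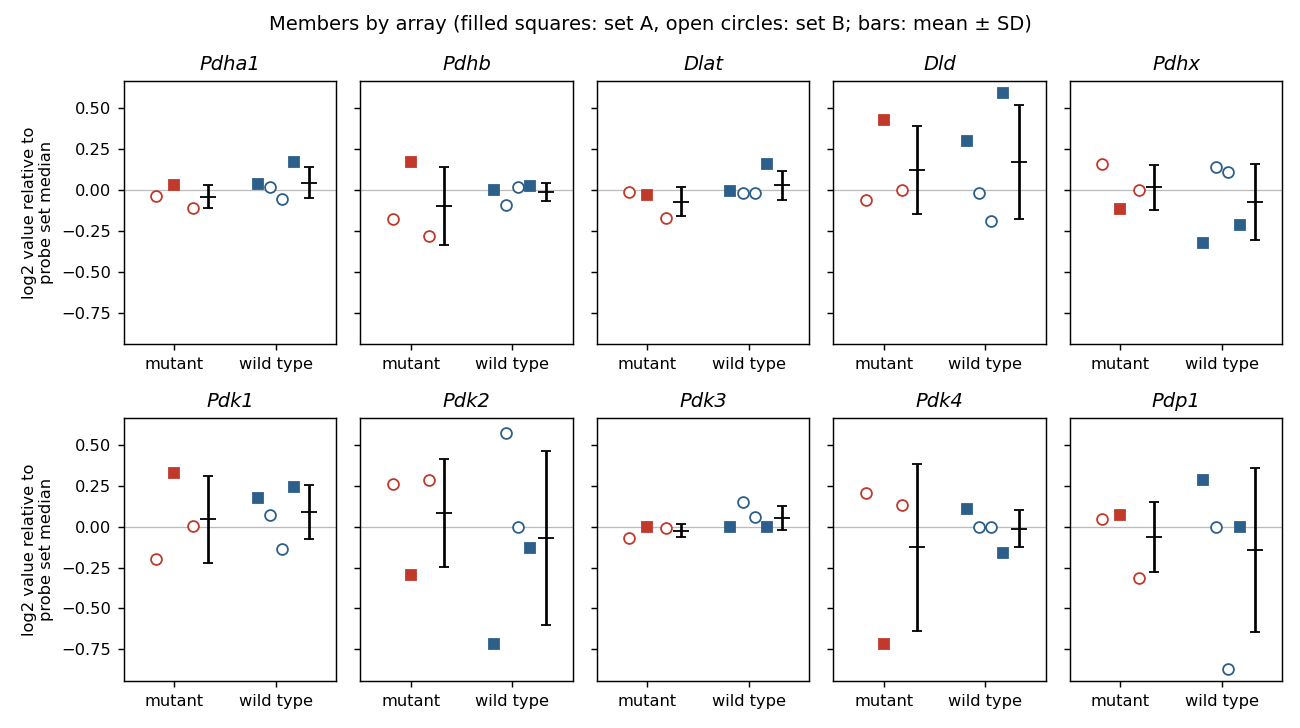
Log2 value of each of the 10 genes, relative to the probe set median, in 3 mutant (red) and 4 wild-type (blue) arrays. Filled squares are set A, open circles set B, and the bars give the mean ± SD of each group. The groups overlap in every gene, while Pdha1, Dld, Pdhx, Pdk1 and Pdk2 separate squares from circles.

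Among the subunits the median difference was -0.08 over the 5 genes against -0.01 over all genes, and 4 of the 5 had a lower mean in mutant muscle. Without mutant replicate 3 the median was 0.0085. Their mean per array was -0.03, 0.10 and -0.11 in mutant muscle against 0.00, 0.01, -0.03 and 0.15 in wild type. The groups overlapped, with the highest mean in wild-type replicate 4 and the lowest in mutant replicate 3.

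Pdha1 encodes E1 alpha, the subunit that the kinases phosphorylate. It measured -0.04, 0.03 and -0.11 in mutant muscle against 0.04, 0.02, -0.06 and 0.17 in wild type. The difference was -0.08 ± 0.09 (SE), and its 95% interval of 0.82 to 1.09-fold was among the narrowest of the 10. Its 2 probe sets did not behave alike. Probe set 1449137_at was at 0.22, 0.04 and 0.36 in set A and between -0.22 and 0.00 in set B, whereas 1418560_at spanned only -0.16 to 0.06 over the 7 arrays and was lowest in mutant replicate 2.

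Pdhb encodes E1 beta, the partner of E1 alpha in the decarboxylase. It measured -0.18, 0.17 and -0.28 in mutant muscle against 0.00, -0.09, 0.02 and 0.03 in wild type. The 3 mutant arrays lay on both sides of all 4 wild-type arrays. The mutant SD was 0.24 (n = 3) and the wild-type SD 0.05 (n = 4), and the difference was -0.09 ± 0.12 (SE). Without mutant replicate 2, the highest, it was -0.22, with an unadjusted limma p of 0.0348 and an adjusted p of 0.997. A second probe set in a lower level class, 1448214_at, stayed between -0.02 and 0.08.

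Dlat encodes E2, the acetyltransferase that forms the core of the complex. It measured -0.01, -0.03 and -0.17 in mutant muscle against -0.01, -0.02, -0.02 and 0.16 in wild type. Of the 10 genes it had the smallest limma p, 0.292 unadjusted, at a difference of -0.10 ± 0.09 (SE; adjusted p = 1.00). That p ranked 3728 of 18193. All 3 of its probe sets gave a lower mutant mean, by -0.11, -0.09 and -0.11. They disagreed by array: in mutant replicate 1 they read 0.11, 0.16 and -0.31, and in wild-type replicate 3 they read 0.14, 0.14 and -0.34.

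Dld encodes E3, the dihydrolipoamide dehydrogenase that the complex shares with the 2-oxoglutarate and branched-chain complexes. It varied most among the subunits. It measured -0.06, 0.43 and 0.00 in mutant muscle against 0.30, -0.02, -0.19 and 0.59 in wild type. The high arrays were mutant replicate 2 and wild-type replicates 1 and 4, the 3 arrays of set A, and no array of set B came above 0.00. The mean of set A lay 0.51 above that of set B, whereas mutant minus wild type was -0.05 ± 0.21 (SE). With the sets as a block the genotype difference was 0.04 ± 0.10. A dim second probe set, 1433263_at, ran from -0.22 to 0.04 and did not separate the sets.

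Pdhx encodes the E3-binding protein, which anchors E3 to the core. It ran the other way, at 0.16, -0.11 and 0.00 in mutant muscle against -0.32, 0.14, 0.11 and -0.21 in wild type. All 3 arrays of set A were below all 4 of set B. It was the only subunit with a higher mutant mean, at 0.09 ± 0.14 (SE), or 0.03 ± 0.09 with the sets as a block. Set A was thus high for the brighter Dld probe set and low for Pdhx, whose proteins bind each other.

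Among the kinases the median difference was -0.06 over 4 genes against -0.01 over all genes, and 3 of the 4 had a lower mean in mutant muscle. The median was 0.0056 without mutant replicate 1 and 0.046 without mutant replicate 2. The mean of the 4 was 0.05, -0.17 and 0.10 in mutant muscle against -0.11, 0.20, -0.02 and -0.01 in wild type.

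Pdk4 is the kinase that fasting and fat supply are known to induce. It measured 0.20, -0.72 and 0.13 in mutant muscle against 0.11, 0.00, 0.00 and -0.16 in wild type. Mutant replicate 2 was the lowest of all 7, and mutant replicates 1 and 3 were the highest. The group means were -0.13 ± 0.51 (SD, n = 3) and -0.01 ± 0.11 (SD, n = 4). The difference was -0.11 ± 0.22 (SE) or 0.92-fold, with a 95% interval of 0.65 to 1.32-fold, and the exact two-sided permutation p was 0.857. Its direction rested on 1 array. Without mutant replicate 2 it was 0.18, with an unadjusted limma p of 0.114 and an adjusted p of 0.997. Over the alternatives tried the adjusted p was never under 0.916. Within set B, mutant replicates 1 and 3 lay 0.17 above wild-type replicates 2 and 3. Within set A, mutant replicate 2 lay 0.69 below wild-type replicates 1 and 4, a value with 1 mutant array and no test. Fgf21, the hormone of the series title, was at 2.03, 0.93 and 0.83 in mutant muscle against -0.43, -0.40, 0.00 and -0.05 in wild type. The difference of 1.48 ± 0.29 (SE) had the smallest unadjusted limma p of all genes, 0.0013, and did not pass the adjusted threshold. Mutant replicate 2 was thus high for Fgf21 and lowest for Pdk4. Wild-type replicates 1 and 2, low in slow fibre markers, were at 0.11 and 0.00 for Pdk4. A link between Pdk4 and those markers was not tested.

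Pdk2 is the kinase expressed in most tissues. It had the widest span of the 10 genes. It measured 0.26, -0.29 and 0.29 in mutant muscle against -0.72, 0.57, 0.00 and -0.13 in wild type. Wild-type mice gave both the highest and the lowest value. All 3 arrays of set A were below all 4 of set B, with means of -0.38 and 0.28. The genotype difference was 0.15 ± 0.30 (SE), or 1.11-fold with an interval of 0.69 to 1.80-fold. With the sets as a block it was 0.04 ± 0.19. Wild-type replicates 1 and 2, both low in slow fibre markers, held the lowest and the highest Pdk2.

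Pdk1, known as a target of the hypoxia factor HIF1, has 4 probe sets, and they differed. Probe set 1423747_a_at measured -0.45, 0.66 and -0.23 in mutant muscle against 0.80, 0.00, -0.20 and 0.67 in wild type. Set A was at 0.66 or more and set B at 0.00 or less, a difference of 0.93 between the set means, the largest of the 19 probe sets. In contrast 1435836_at measured -0.14, 0.36 and 0.25 in mutant muscle against -0.27, 0.00, -0.21 and 0.06 in wild type. It gave 0.26 ± 0.15 (SE), the smallest p of the 19 probe sets at 0.117 unadjusted (adjusted p = 1.00), while 1423747_a_at gave -0.33 ± 0.34. Probe sets 1423748_at and 1434974_at spanned 0.25 and 0.21 over the arrays. The first of them was exactly at the median in 4 of the 7 arrays, so the level class that puts it in the gene value rests on few values. The gene value, a mean of 3 probe sets, was -0.20, 0.33 and 0.00 in mutant and 0.17, 0.07, -0.14 and 0.24 in wild type, a difference of -0.04 ± 0.15. Which Pdk1 transcripts each probe set reads was not examined.

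Pdk3, another kinase of the family, was read by 1 probe set between 4 and 8 on the log2 scale and had the smallest range of the 10 genes over the arrays. It measured -0.07, 0.00 and -0.01 in mutant muscle against 0.00, 0.15, 0.06 and 0.00 in wild type. The difference was -0.08 ± 0.08 (SE), with an interval of 0.83 to 1.08-fold. The value equalled the probe set median in 3 arrays, so its small spread rests on few distinct values.

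Pdp1 is a catalytic subunit of the phosphatase. It measured 0.05, 0.07 and -0.31 in mutant muscle against 0.29, 0.00, -0.87 and 0.00 in wild type. Wild-type replicate 3, the array with the low Gapdh 5 prime value, the low muscle fibre markers and the high adipocyte and fibroblast markers, was the lowest. The difference was 0.08 ± 0.27 (SE), and without that array it was -0.16 ± 0.14. Without wild-type replicates 1 and 2 together it was 0.37, and with age as a covariate 0.17. The second probe set, 1434228_at, was also lowest in wild-type replicate 3, at -0.42, and differed by -0.09 ± 0.18. The 2 probe sets of Pdp1 thus had differences of opposite sign, both smaller than their errors.

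**Figure D2:**
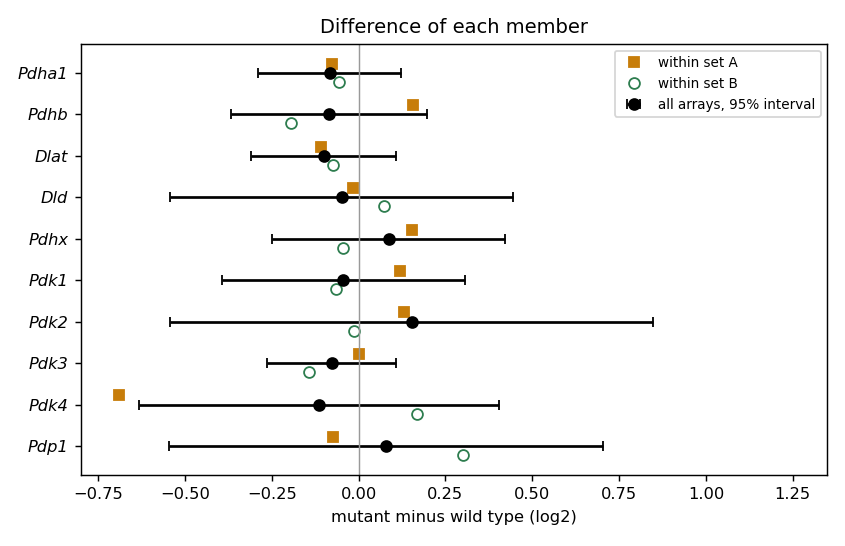
Mutant minus wild-type difference of the 10 genes on the log2 scale, with 95% limma intervals from all 7 arrays (black) and the plain differences of means within set A (1 mutant, 2 wild-type) and within set B (2 and 2). Every interval includes 0, and for Pdk4 the set A and set B values lie at -0.69 and 0.17.

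The array sets were compared in the same way. They did not overlap in 5 of the 10 genes, with set A above in Pdha1, Dld and Pdk1 and below in Pdhx and Pdk2. The same held for 20.4% of all genes and for 30.3% of the 4377 genes of the highest level class, to which 9 of these 10 belong. The sets were drawn from the other genes of the same arrays, so this count is a description and has no test. The genotype ranges did not separate in any of the 19 probe sets. They separated in 1.98% of all genes, and the share over all probe sets was not computed. With the sets as a block, a choice made after the data were seen, the largest difference among the 10 was -0.17 ± 0.18 (SE) for Pdk4, and 0 of the 10 passed (smallest adjusted p = 0.909).

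**Figure D3:**
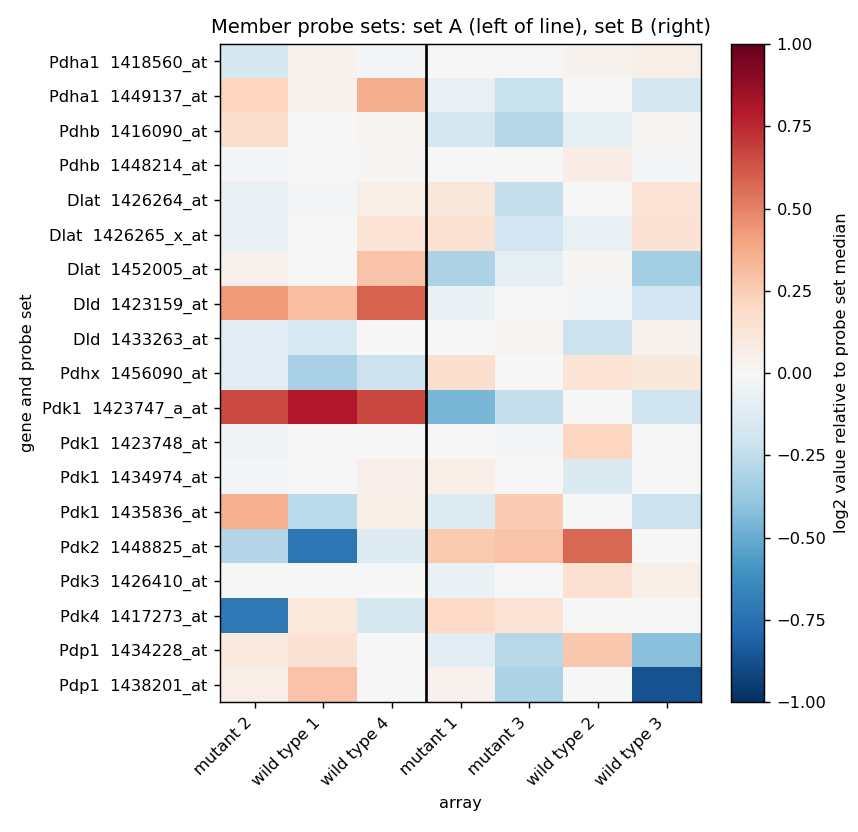
Log2 values of the 19 probe sets, relative to each median, with the 3 arrays of set A left of the line and the 4 of set B to the right. The rows of Dld 1423159_at and Pdk1 1423747_a_at are high and that of Pdk2 is low in set A, and other probe sets of Dld and Pdk1 do not follow.

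By the correlation over the 7 arrays, the 5 genes of the highest level class most like Pdk2 were Fastk, Mfn1, Speg, Clpp and Tcf25, with Pearson r from 0.980 to 0.984 among 4376 genes. Fastk encodes a kinase-related protein, Mfn1 a mitochondrial fusion protein and Clpp a matrix protease. All 5 were lowest in wild-type replicate 1 and highest in wild-type replicate 2, as Pdk2 was. The genes most like Pdk4 were Ksr2, Scn8a, Tmem214, Dclk1 and Cacng2, with r from 0.957 to 0.973. All 5 were lowest in mutant replicate 2, at -0.16 to -0.83, and between -0.04 and 0.19 in the other 6 arrays, so the likeness rests mainly on that array. Scn8a and Dclk1 were exactly at the median in most arrays, so their level class rests on few values. These arrays share the set structure described above, and the correlations are descriptions.

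Other genes around the complex were read from lists of related functions. Besides Pdp1, the phosphatase has the catalytic isoform Pdp2 and the regulatory subunit Pdpr. For the gene values of both, the mutant and wild-type arrays did not overlap, in opposite directions. The same held for 1.98% of all genes. Pdpr measured 0.18, 0.08 and 0.48 in mutant muscle against -0.44, 0.02, -1.06 and -0.10 in wild type. The difference was 0.64 ± 0.26 (SE; unadjusted p = 0.041, adjusted p = 1.00), and without wild-type replicate 3, the lowest, it was 0.42 ± 0.16. Its 3 averaged probe sets differed by 0.84, 0.34 and 0.73. Only in the one at 0.73 were the groups apart. In the one at 0.84, mutant replicate 1 was at 0.00 and wild-type replicate 4 at 0.04. In the one at 0.34, mutant replicate 2 was at 0.00 and wild-type replicate 2 at 0.33. A further Pdpr probe set, in the lowest level class and not averaged, differed by 0.05 ± 0.08 (SE). Pdp2 measured -0.17, -0.07 and -0.37 in mutant muscle against 0.00, 0.02, 0.56 and 0.02 in wild type, a difference of -0.35 ± 0.16, or -0.22 ± 0.10 without wild-type replicate 3. Pdp2 lay in the lowest level class. Neither passed the threshold over all genes. Wild-type replicate 3, with its different marker means and Gapdh value, held the outermost value of both, and the beta-actin 5 prime minus 3 prime value also had its groups apart; their part was not tested.

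Enzymes and carriers that make, move or carboxylate pyruvate formed the next list. Of 12 listed, 11 were measured, 0 passed, 5 were higher and 6 lower, and the median difference was -0.03. Me2, a mitochondrial malic enzyme, differed by -0.27 ± 0.16 (SE) and Slc16a7, a monocarboxylate transporter, by -0.12 ± 0.14. The pyruvate carrier gene Mpc1 differed by 0.00 ± 0.18.

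The sister complexes for 2-oxoglutarate and branched-chain keto acids, which use the same E3, had 4 of 8 genes higher and 4 lower, with a median of -0.01. Ppm1k, the phosphatase of the branched-chain complex, measured 0.13, 0.15 and 0.04 in mutant muscle against -0.26, -0.04, 0.00 and -0.11 in wild type. All 3 mutant arrays were above wild type, by 0.21 ± 0.09 (SE), and it did not pass (adjusted p = 1.00). Dbt, the E2 of that complex, differed by 0.27 ± 0.16 with overlapping groups.

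In the cofactor lists 0 genes passed. The 7 genes of lipoic acid synthesis, the cofactor bound to E2 and Pdhx, had a median of -0.01 and ran from -0.12 to 0.09, with Lipt1, a lipoyltransferase, and Lipt2, an octanoyltransferase, both at -0.12. For thiamine, the cofactor of E1, 3 of 5 listed genes were measured, at -0.06 for Thtpa, a thiamine triphosphatase, to 0.13 for Slc19a2, a thiamine transporter.

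Fasting genes of the PPAR and FoxO programme, the group Pdk4 belongs to, had a median difference of 0.00 over the 21 measured of 24, with 11 higher, 10 lower and 0 past the threshold. Cpt1a, the liver-type carnitine palmitoyltransferase, differed by 0.25 ± 0.18 (SE), Foxo4 by 0.42 ± 0.37 and the uncoupling protein gene Ucp3 by 0.20 ± 0.18, while Acot1, an acyl-CoA thioesterase, differed by -0.24 ± 0.20. Foxo4 was at 0.48, -0.03 and 0.64 in mutant muscle against -0.71, 0.89, 0.00 and -0.39 in wild type, all of set A being below all of set B, as for Pdk2. HIF1 targets, the group of Pdk1, had a median of 0.01 over 12 genes, 7 higher and 5 lower. Egln1, an oxygen-sensing hydroxylase, differed by 0.21 ± 0.18 and Pgk1, a glycolytic kinase, by -0.16 ± 0.14. Genes of citrate and acetyl-CoA handling downstream of the complex, a mixed list with the carrier Slc25a1, Idh3a and Acly beside enzymes that take up acetyl-CoA, had a median of 0.01 over 6 measured of 7. Crat, carnitine acetyltransferase, differed by -0.22 ± 0.14 and Cs, citrate synthase, by 0.03 ± 0.09.

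**Figure D4:**
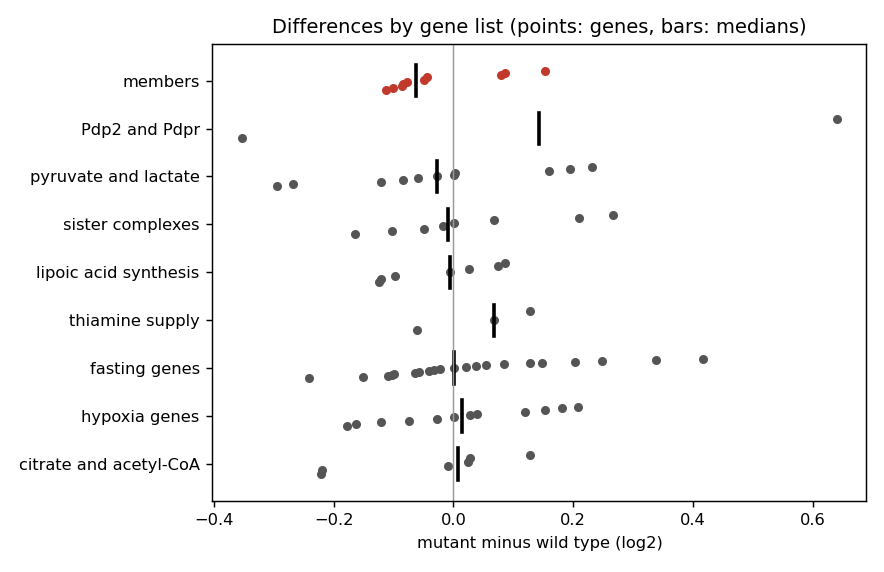
Mutant minus wild-type difference on the log2 scale of each gene in the 10 members and in 8 lists of related genes, with a bar at each median. The medians lie between -0.06 and 0.14, and Pdpr at 0.64 and Pdp2 at -0.35 are the outermost points.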

How the data were processed

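Values are the deposited log2 values of 45101 probe sets on 7 arrays. GCOS 4.0 is named in the submitters' processing notes. Summary method, array scaling and centring are steps not given in the sources used here, and the row median was 0 in all 45101. The log base was taken as 2 and was not tested. The level class (2 to 4, 4 to 8, 8 to 16) was read from the spacing of single-precision numbers, leaving out each probe set's lowest array. 56.4% of probe sets had more than 1 array at exactly the median. Such arrays carry no spacing, so where there are many the class rests on few values and can be set too high.

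Of the probe sets, 34945 had 1 symbol, updated by Entrez identifier with the RefSeq table of GRCm38.p6 (34741 matched), 932 had several and 9211 none. A gene's value is the mean of its probe sets in its highest class. The genotype test was that of limma 3.58.1 under R 4.3.3 (lmFit, eBayes, no covariate, no filter, two-sided), with Benjamini-Hochberg adjustment over 18193 genes and a threshold of 0.05, and the fit was tested on simulated data. The 95% intervals are limma's. Exact permutation tests used the 35 divisions of 7 arrays into 3 and 4, whose smallest p is 0.0286. Set A and set B are the sides of the first principal component.

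Members, lists and tests were chosen with earlier results of these data known. Named genes are all members, the 2 to 4 of each list with the smallest p, and the 5 most like Pdk2 and Pdk4; Mpc1 was chosen after its values were seen. Alternatives were the probe set summary, quantile normalization, a variance trend, a filter on dim genes, age, the replicate number, and arrays left out. Arrays give no read depth, so their number limits the precision.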

Additional observations from a re-analysis of the deposited data

Results flagged for a closer look

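Among 31 wild-type series of 4 values (the 10 genes, their 19 probe sets and the means of the subunits and the kinases), 2 had 1 array far from the other 3. Dlat was at 0.16 in wild-type replicate 4 and between -0.02 and -0.01 in the other 3, so the gap took up 0.916 of the range. The Pdk1 probe set 1423748_at was at 0.21 in wild-type replicate 2 and at 0.00 in the other 3, a share of 1. Chance marks about 1 group in 20 in this way, but the 31 series are not independent. A gene whose value is 1 probe set is counted again as that probe set. The rate does not hold for 1423748_at, whose 3 tied values at the median fix its share at 1. Mutant groups of 3 were not tested. The Dlat value averages 3 probe sets, and in wild-type replicate 4 these read 0.06, 0.14 and 0.29.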

How the results depend on the processing

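With all alternatives tried and the array sets as a block, 0 genes of the whole table and 0 members passed in every fit, and the lowest adjusted p of any member was 0.909. Differences near 0 changed sign in some. No mutant array is numbered 4, so the replicate block gave the same differences as leaving out wild-type replicate 4. Dld became 0.0035 with the mean over all probe sets, 0.092 with the replicate block and 0.037 with the array sets as a block; Pdk1 became 0.0084 with the replicate block and 0.0091 with the array sets as a block; Pdp1 became -0.0076 with the mean over all probe sets and -0.052 with quantile normalization. With 1 array left out, the ranges were -0.20 to 0.092 for Dld, -0.18 to 0.077 for Pdk1, -0.28 to 0.18 for Pdk4, -0.22 to 0.0085 for Pdhb, -0.063 to 0.37 for Pdk2, -0.16 to 0.22 for Pdp1, -0.12 to 0.0085 for the subunit median and -0.092 to 0.046 for the kinase median. Pdk2 turned to -0.063 without wild-type replicate 1, and the subunit median turned positive without mutant replicate 3. Pdha1, Dlat, Pdhx and Pdk3 kept their sign in all 15 fits, but not every fit could change it. The variance trend and the filter on dim genes leave each difference as in the main fit. For these genes the mean over all probe sets does so too. Pdp1 was 0.37 without wild-type replicates 1 and 2 together and 0.17 with age as a covariate, and Pdhb was -0.22 without mutant replicate 2. The single-probe-set fit gave no gene values. Deviations of same-numbered arrays correlated at -0.46, -0.28 and 0.13 for replicates 1, 2 and 3. The arrays numbered 1, and those numbered 2, lay in different array sets, and those numbered 3 in the same set. These correlations therefore cannot show whether the replicate numbers pair the mice. With 3 arrays against 4, the intervals leave room for changes of the sizes given in the text.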
